A study of Mus musculus with 15 samples.

Results

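Mitotic spindle and checkpoint genes encode the machinery that condenses, attaches and separates chromosomes and then divides the cell. The group was given as a list of 36 gene symbols, with no threshold on a measured value; earlier results of these data were known when it was drawn up. Of these, 35 carried a named probe set on the array, out of 18193 genes with one. Ccnb1, the partner cyclin of Cdk1, had no probe set named here and was not analysed. Each gene was represented by its probe set of highest mean over the 15 arrays, on the log2 expression scale. The results are ordered by role, from kinases of mitotic entry to proteins of cytokinesis.

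Expression was measured with Affymetrix arrays in 15 mouse samples, 3 for each of 5 groups of cultured cells. MSC are mesenchymal stromal cells kept in low-glucose DMEM with 10% fetal bovine serum. HD28 cells were derived from MSC in a first medium with hepatocyte growth factor (HGF) at 20 ng/ml, basic fibroblast growth factor (bFGF) at 10 ng/ml and nicotinamide at 0.61 g/L for 7 days. A second medium with oncostatin M at 20 ng/ml, dexamethasone at 1 µmol/L and an ITS premix followed. dHD28 cells are HD28 cells whose second medium was replaced by that of MSC. Hepatocyte samples are mouse primary hepatocytes kept in DMEM/F12 with 10% fetal bovine serum. MLC were derived from primary hepatocytes in MSC medium with TGF-β1 at 10 ng/ml for 7 days, then at 5 ng/ml and at 1 ng/ml up to day 28, and were kept in MSC medium thereafter. No strain, age or allele is given in the labels, and no time on MSC medium for dHD28. Nothing in them says that the 3 samples of a group came from separate animals or cultures, so p-values measure only the spread between these samples, which may be technical.

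As background, the cyclin-dependent kinase Cdk1 with a B-type cyclin drives entry into mitosis, and the Plk1 and Aurora kinases mature the spindle poles and correct faulty attachments. Kinetochores built on centromeric chromatin hold the spindle microtubules, and the spindle checkpoint keeps Cdc20 from activating the anaphase-promoting complex (APC/C) until all chromosomes are attached. Transcripts of these genes are made mainly late in the cell cycle, and in adult liver most hepatocytes are quiescent. In bulk RNA, fewer dividing cells and less of a transcript per cell cannot be told apart.

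Genes of this kind are known for 2 promoter elements, the CHR, whose usual form is TTTGAA, and the CCAAT box bound by NF-Y. RefSeq promoter windows of assembly GRCm38.p6, from 250 bases before to 50 bases after the start, were found for 32 of the listed genes, with 34 windows in all, Ccnb1 included. Windows for Incenp, Tpx2, Aurkb and Kif20a were not used here. Both motifs were searched on both strands, and matches may overlap. TTTGAA occurred in 26 of 34 windows (76.5%) and in 17.9% of all 32851 windows of the table. CCAAT occurred in 26 of 34 (76.5%) and in 37.4% of all windows, and both motifs together in 23 of 34 (67.6%) and 6.95% of all. At least 2 CCAAT matches lay in 18 of 34 windows (52.9%) and in 11.7% of all. Neither motif was found in 5 of 34 (14.7%), against 51.7% of all windows. Of 29 TTTGAA matches in the members' windows, 24 (82.8%) began within 50 bases of the start, against 25.3% of 6737 matches over all windows. These shares are descriptions, and no match was tested for function.

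The windows of 4 genes are shown as examples, picked by their expression and not by their motifs. Cdca8 and Ube2c had the largest difference between MSC and HD28 in their roles, and Nusap1 had the smallest of all members. Spc25 was the one member whose mean was not higher in HD28 than in hepatocytes. They are written 5′ to 3′ on the strand of the gene, with matches of TTTGAA and CCAAT, or of their reverse complements TTCAAA and ATTGG, in capitals. Cdca8 lies at chr4:124936868-124937167 on the minus strand, Ube2c at chr2:164769679-164769978 on the plus strand, Spc25 at chr2:69206164-69206463 on the minus strand and Nusap1 at chr2:119618048-119618347 on the plus strand.
Cdca8: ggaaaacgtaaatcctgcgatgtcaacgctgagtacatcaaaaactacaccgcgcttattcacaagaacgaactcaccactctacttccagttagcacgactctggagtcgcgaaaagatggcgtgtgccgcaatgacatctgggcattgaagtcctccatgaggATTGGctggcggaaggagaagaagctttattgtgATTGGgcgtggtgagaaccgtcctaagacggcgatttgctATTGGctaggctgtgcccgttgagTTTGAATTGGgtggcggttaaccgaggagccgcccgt
Ube2c: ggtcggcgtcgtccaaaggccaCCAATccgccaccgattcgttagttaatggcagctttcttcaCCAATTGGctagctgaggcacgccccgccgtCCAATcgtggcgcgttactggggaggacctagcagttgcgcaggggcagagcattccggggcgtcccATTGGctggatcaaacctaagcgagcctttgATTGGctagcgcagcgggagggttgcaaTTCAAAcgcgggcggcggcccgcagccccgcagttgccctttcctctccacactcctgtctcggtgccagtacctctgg
Spc25: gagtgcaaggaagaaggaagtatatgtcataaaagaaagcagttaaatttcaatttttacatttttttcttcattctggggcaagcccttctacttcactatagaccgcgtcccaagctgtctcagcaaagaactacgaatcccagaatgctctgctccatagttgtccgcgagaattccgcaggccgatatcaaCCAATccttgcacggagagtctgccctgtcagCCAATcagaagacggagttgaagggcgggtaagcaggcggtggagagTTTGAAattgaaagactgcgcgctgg
Nusap1: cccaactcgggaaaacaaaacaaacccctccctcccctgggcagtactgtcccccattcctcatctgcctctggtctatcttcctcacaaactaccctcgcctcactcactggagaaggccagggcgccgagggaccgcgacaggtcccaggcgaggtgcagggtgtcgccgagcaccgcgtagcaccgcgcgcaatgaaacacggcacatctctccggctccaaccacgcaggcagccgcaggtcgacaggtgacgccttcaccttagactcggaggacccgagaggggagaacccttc
Cdca8 held 1 TTTGAA and 4 CCAAT matches, and Ube2c held 1 and 6. Spc25 held 1 TTTGAA and 2 CCAAT matches. Nusap1 held neither motif in this window. The 5 windows with neither motif were those of Birc5, Mad2l1, Melk, Nuf2 and Nusap1. Of these, Melk had the largest change of its role between MSC and HD28 and Mad2l1 the smallest. Kif2c, also the largest of its role, held 1 TTTGAA and 0 CCAAT matches. Whether the motifs go with the size of the change was not tested.

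Several features of the arrays bear on the values. Array medians lay between 4.84 and 4.95, and the lower quartile of an array, a mark of dim signal, between 3.43 and 3.70. The 15 poly-A spike-in probe sets split the arrays into 6 with high signal (6.17 to 7.13) and 9 with low signal (4.09 to 4.77), and every group held both classes. HD28 replicate 3 stood apart. All 9 hepatocyte markers were well above the dim mark there, with a mean level of 11.71, against 4.12 and 4.42 on the other HD28 arrays and 12.93 to 13.19 in hepatocytes. Alb, which encodes serum albumin, read 13.80 on it and 3.38 and 3.74 on the others. It also had 4 of 8 Kupffer cell markers (mean level 5.45) and 3 of 6 liver endothelial markers (5.04) well above the dim mark, against 0 of either on every other array outside the hepatocyte group, while its stromal marker mean of 9.77 was like that of the other HD28 arrays. Whether this sample held RNA of liver cells was not tested. The main counts of called genes that rest on HD28 are also given without that array, and calls of named genes lost without it are named. Counts of groups that did not overlap are given with all arrays only. Hepatocyte arrays held markers of other liver cells: 6 to 8 of 8 Kupffer cell markers were well above the dim mark, with mean levels of 6.52 to 8.36 against 3.60 to 4.12 on the arrays outside the hepatocyte group other than HD28 replicate 3. Of 6 liver endothelial markers 4 were (5.94 to 7.15, against 3.88 to 4.34 on the same other arrays), and of 4 measured lymphocyte markers 1 or 2 (4.91 to 5.71, against 3.78 to 4.27 in all other groups). MSC replicates 1 and 2 also had 1 lymphocyte marker well above the dim mark. The lymphocyte list differed most in Ptprc, with 4.91, 7.57 and 6.88 in hepatocytes and 2.60, 2.49 and 2.65 in MSC. Nkg7 overlapped, with 3.53, 3.87 and 4.07 against 3.95, 3.64 and 3.82. Stromal marker means were 9.44 to 9.77 in all other groups and 5.19 to 6.29 in hepatocytes. This difference lay in Col1a1, Col1a2, Col3a1 and Pdgfrb. Nt5e and Thy1 overlapped between hepatocytes and MSC. Eng went the other way, with 7.49, 8.30 and 8.28 in hepatocytes and 6.63, 6.45 and 6.40 in MSC. Bile duct marker means overlapped between hepatocytes (4.95 to 5.78) and the other groups (5.62 to 6.55). The part of these cells in the members' values was not tested.

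Over the 5 groups, the members formed 3 levels: MSC, dHD28 and MLC were high, HD28 was intermediate and hepatocytes were lowest. The moderated F test of limma passed an adjusted p under 0.05 for 35 of 35 members, against 46.8% of all genes. Every hepatocyte array lay below every HD28 array, and every HD28 array below every MSC array, in 31 of 35 members, against 6.54% of all genes. Relative to the MSC mean, the median member deviated by between -0.24 and 0.50 on each array of MSC, dHD28 and MLC. It deviated by -1.70, -2.41 and -2.17 on HD28 replicates 1, 2 and 3, and by -4.60, -3.94 and -4.84 on the hepatocyte arrays. HD28 replicate 1 was the highest of its group in 32 members and replicate 2 the lowest in 30. Among hepatocyte arrays, replicate 2 was the highest in 29 members.

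**Figure D1:**
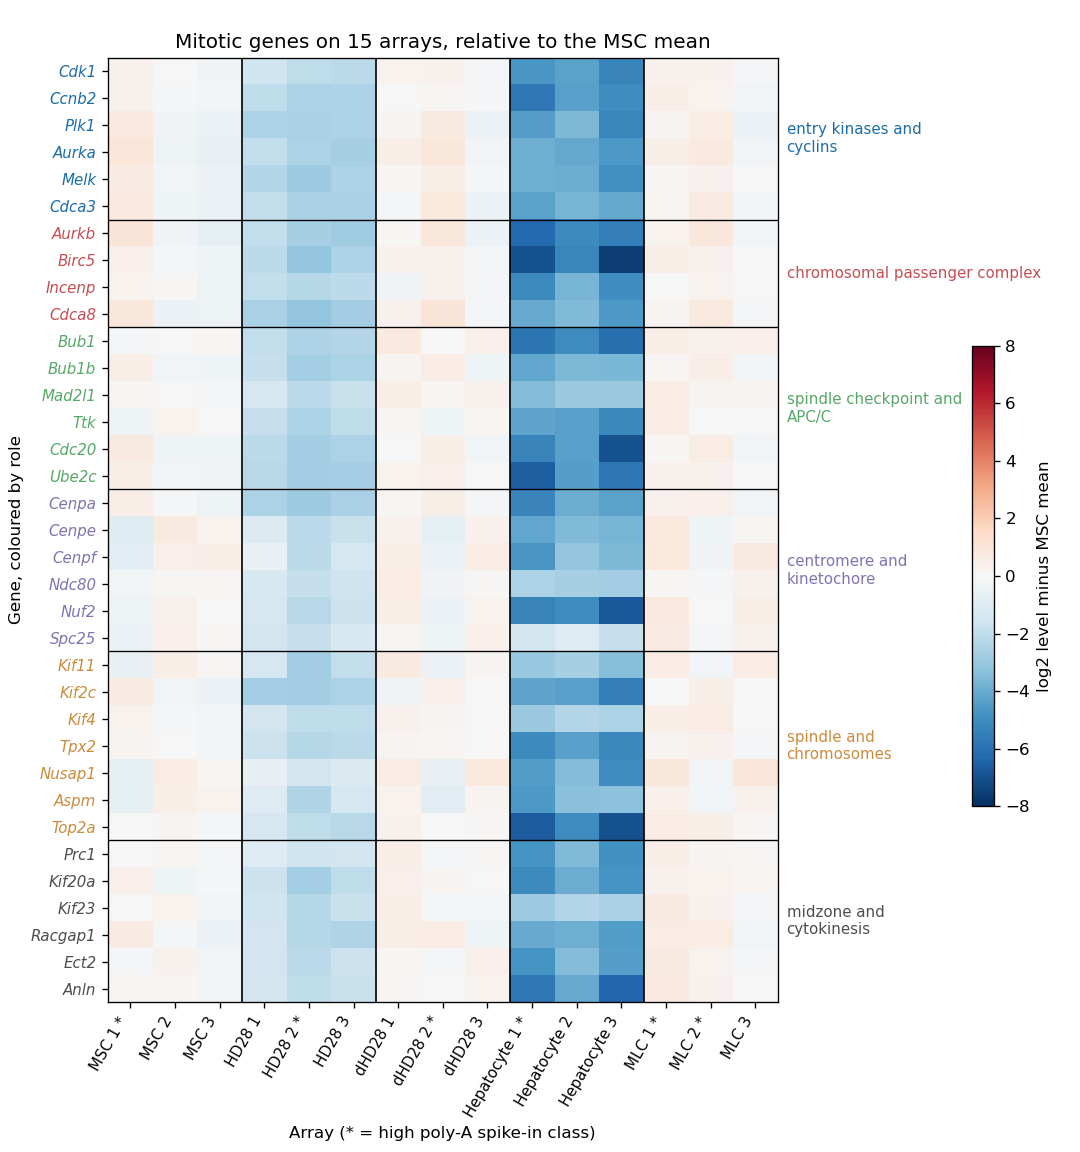
Log2 level of 35 mitotic genes (rows, ordered and coloured by role) on each of 15 arrays (columns, stars mark the high spike-in class) minus the mean of the MSC arrays, with blue for lower and red for higher. HD28 columns are pale blue with medians of -1.70, -2.41 and -2.17, hepatocyte columns are darker with medians of -4.60, -3.94 and -4.84, and dHD28 and MLC columns are close to the MSC level.

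Differentiation of MSC into HD28 was accompanied by lower levels of nearly all mitotic genes. In HD28, 33 of 35 members fell relative to MSC, at an adjusted p under 0.05 (limma, Benjamini-Hochberg over all genes) and a fold of at least 2, and 0 rose. Of all genes, 3.52% were lower and 3.24% higher by the same rule. The median log2 change of the members was -2.08, with a range from -2.85 to -1.10, and that of all genes was -0.08. Arrays of HD28 lay entirely below those of MSC in 33 members, against 19% of all genes. With HD28 replicate 3 left out, 30 members fell. On arrays of the low spike-in class alone, 2 per group, all 35 members were at least 2-fold lower, with a median of -1.84. The low-class HD28 arrays were replicates 1 and 3, so HD28 replicate 3 is part of this check. In the high class, 1 array per group, 34 members were at least 2-fold lower, with a median of -2.36.

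Kinases and cyclins of mitotic entry fell in 6 of 6 measured members, with a median log2 change of -2.38. Melk, a kinase whose expression peaks in mitosis, had the largest change of the role. Its level was 9.10, 8.28 and 8.02 on the MSC arrays, 6.15, 5.55 and 5.97 in HD28 and 8.64, 8.99 and 8.34 in dHD28. MSC and HD28 arrays were far apart, and dHD28 arrays lay within the MSC range. Melk fell by 2.57 on the log2 scale (SE 0.31, 5.95-fold, adjusted p = 2e-04, limma). Cdk1, the kinase that drives mitotic entry, had the smallest change of the role. It read 10.88, 10.51 and 10.23 in MSC, 8.97, 8.52 and 8.37 in HD28 and 10.81, 10.91 and 10.39 in dHD28. Here too no HD28 array reached an MSC or dHD28 array. Cdk1 fell by 1.92 (SE 0.27, 3.79-fold, adjusted p = 0.00057). Plk1, the Polo-like kinase of spindle poles, fell by 2.54, the cyclin Ccnb2 and the spindle-pole kinase Aurka by 2.36 each, and Cdca3, a protein of mitotic entry, by 2.40.

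The chromosomal passenger complex, which moves from centromeres to the spindle midzone and corrects attachments, fell in 4 of 4 members with a median of -2.53. Cdca8, its subunit borealin, had the largest change of all members. Its level was 10.42, 9.10 and 9.11 in MSC, 6.96, 6.39 and 6.73 in HD28 and 9.90, 10.58 and 9.38 in dHD28. The HD28 arrays were all below the others by more than 2 log2 units, and MSC replicate 1 stood above the other 2 MSC arrays. Cdca8 fell by 2.85 (SE 0.41, 7.21-fold, adjusted p = 0.00068, limma). Its promoter window, printed above, had 4 CCAAT matches, one of them overlapping TTTGAA. Incenp, the scaffold of the complex, had the smallest change: 10.54, 10.36 and 9.88 in MSC and 8.26, 8.0 and 8.15 in HD28. Its HD28 arrays were close to one another and well below MSC, and it fell by 2.13 (SE 0.31, adjusted p = 0.00079). Birc5 (survivin) fell by 2.57 and the kinase Aurkb by 2.48.

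Among genes of the spindle checkpoint and the APC/C, 6 of 6 fell, with a median of -2.31. Ube2c, the ubiquitin-conjugating enzyme of the APC/C, read 11.27, 10.58 and 10.54 in MSC, 8.56, 8.01 and 8.10 in HD28 and 11.09, 11.20 and 10.75 in dHD28. The HD28 arrays formed a narrow band below both other groups. Ube2c fell by 2.58 (SE 0.41, 5.96-fold, adjusted p = 0.0015, limma). Mad2l1, the checkpoint protein that holds Cdc20, had the smallest change, from 10.11, 9.92 and 9.82 in MSC to 8.53, 7.87 and 8.18 in HD28. It fell by 1.76 (SE 0.20, 3.38-fold, adjusted p = 0.00013), with MSC arrays within 0.3 log2 units of each other. The APC/C activator Cdc20 fell by 2.47, the checkpoint kinases Bub1 and Ttk by 2.26 and 2.12, and their partner Bub1b by 2.35.

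Proteins of centromere and kinetochore fell in 5 of 6 members, with a median of -1.63. Cenpa, the histone H3 variant that marks centromeres, had the largest change of the role. Its level was 10.50, 9.88 and 9.62 in MSC, 7.46, 7.08 and 7.42 in HD28 and 10.09, 10.44 and 9.92 in dHD28. No array of HD28 was within 2 log2 units of the others, and Cenpa fell by 2.68 (SE 0.32, 6.40-fold, adjusted p = 0.00019, limma). The 3 members that encode subunits of the NDC80 complex, which grips microtubules, fell by 1.60 (Ndc80), 1.79 (Nuf2) and 1.52 (Spc25). The motor Cenpe fell by 1.65. Cenpf, a large protein of the outer kinetochore, did not pass: it read 7.12, 8.38 and 8.50 in MSC and 7.41, 5.83 and 6.66 in HD28. MSC replicate 1 lay below HD28 replicate 1, so the groups overlapped. Its log2 difference was -1.37 (SE 0.52, adjusted p = 0.12).

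Spindle motors and chromosome proteins fell in 6 of 7 members, with a median of -1.88. Kif2c, a kinesin that shortens microtubules at centromeres, had the largest change, with 9.33, 8.46 and 8.23 in MSC and 5.93, 5.88 and 6.13 in HD28. Its HD28 arrays were within 0.25 log2 units of each other and over 2 units below MSC. Kif2c fell by 2.69 (SE 0.34, 6.45-fold, adjusted p = 0.00031, limma). The spindle-bipolarity motor Kif11 fell by 2.03, the chromosome-arm kinesin Kif4 by 1.83, the spindle assembly factor Tpx2 by 2.05, the spindle-pole protein Aspm by 1.62 and the topoisomerase Top2a by 1.88. Nusap1, which links microtubules to chromosomes, did not pass. It read 7.81, 9.18 and 8.76 in MSC and 7.92, 7.08 and 7.43 in HD28. As in Cenpf, MSC replicate 1 lay below HD28 replicate 1. The log2 difference was -1.10 (SE 0.50, adjusted p = 0.19).

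Proteins of the spindle midzone and of cytokinesis fell in 6 of 6 members, with a median of -1.84. Kif20a, a kinesin that carries the passenger complex to the midzone, read 9.55, 8.77 and 9.03 in MSC and 7.37, 6.41 and 7.07 in HD28. The groups did not overlap, and it fell by 2.16 (SE 0.30, 4.48-fold, adjusted p = 0.00059, limma). Prc1, the bundler of midzone microtubules, had the smallest change of the role, from 9.30, 9.46 and 9.17 in MSC to 8.30, 7.71 and 7.87 in HD28. MSC arrays were close together and all above HD28, and it fell by 1.35 (SE 0.30, adjusted p = 0.012). Without HD28 replicate 2, the lowest HD28 array, Prc1 had a log2 difference of -1.23 (adjusted p = 0.055). The centralspindlin subunits Kif23 and Racgap1 fell by 1.88 and 2.08, the RhoA activator Ect2 by 1.79 and the contractile-ring scaffold Anln by 1.76.

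**Figure D2:**
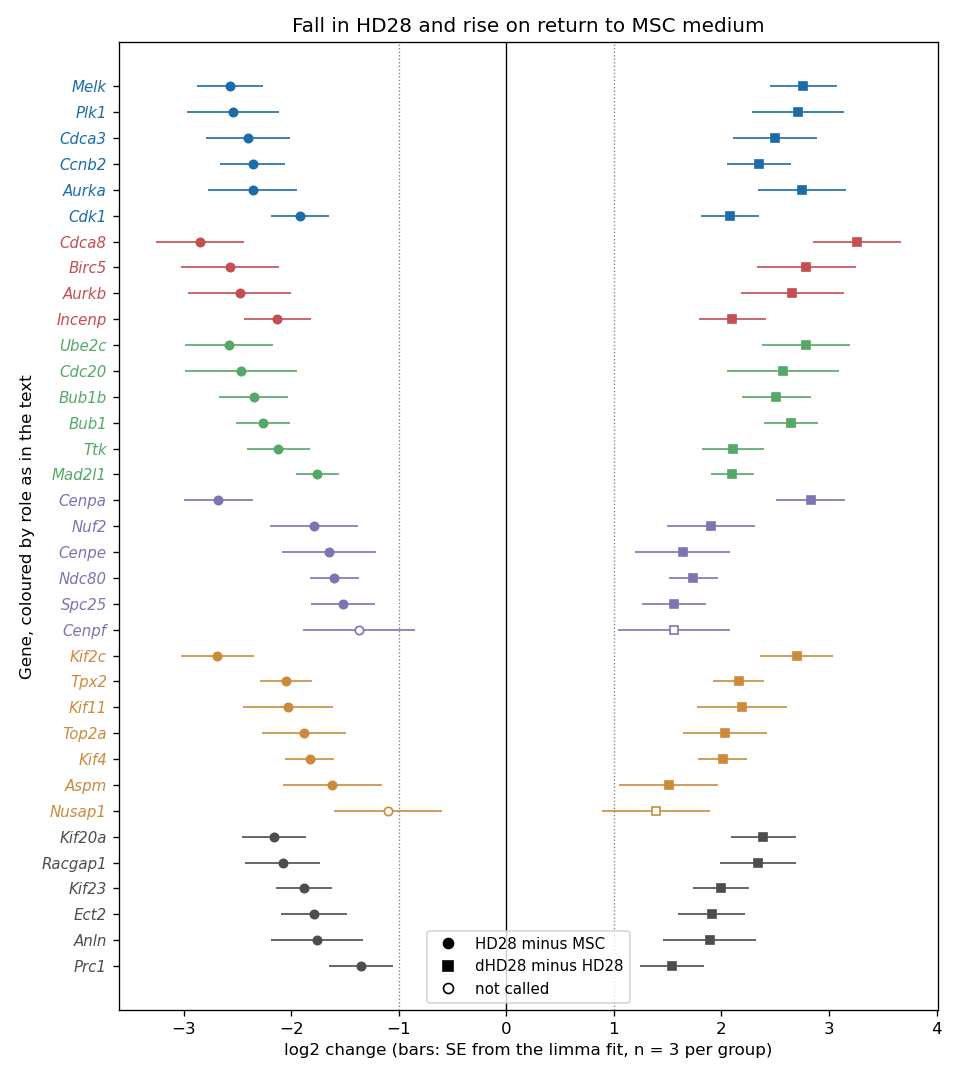
Log2 change of each member (rows, coloured by role) for HD28 minus MSC (circles) and dHD28 minus HD28 (squares), with bars for the SE of the limma fit and 3 arrays per group. All circles lie between -2.85 and -1.10 and all squares between 1.39 and 3.26, and open symbols mark Cenpf and Nusap1, which did not pass the test.

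Calls for genes with a wide spread depended on single arrays. Cenpe, Aspm and Anln lost the call in HD28 minus MSC without HD28 replicate 3, where their adjusted p-values were 0.081, 0.065 and 0.05 (limma). Without HD28 replicate 2, 28 members fell, and Cenpe, Nuf2, Aspm, Prc1 and Anln lost the call. All 35 differences stayed negative in each fit that left out 1 array.

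On return of HD28 cells to MSC medium, nearly all mitotic genes rose. In dHD28, 33 of 35 members were higher than in HD28 by the same rule (limma), and 0 were lower, against 4.63% of all genes higher and 4.19% lower. The median log2 change was 2.16, with a range from 1.39 to 3.26, and the dHD28 arrays lay entirely above the HD28 arrays in 35 members, against 17% of all genes. This comparison shares the HD28 arrays with that of HD28 and MSC, so both use the same low values. In the fit that lacked HD28 replicate 3, 31 members rose. On the 2 arrays per group of the low spike-in class, HD28 replicate 3 among them, all 35 were at least 2-fold higher, with a median of 2.05.

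By role, the median rise was 2.60 for entry kinases and cyclins, 2.72 for the passenger complex, 2.54 for checkpoint and APC/C genes, 1.69 for kinetochore genes, 2.03 for spindle genes and 1.95 for midzone genes. Cdca8 had the largest rise, 3.26 (SE 0.41, 9.58-fold, adjusted p = 0.00022, limma). Cenpa rose by 2.83, Ube2c by 2.79, Melk by 2.76 and Kif2c by 2.70. Smaller rises that passed were those of Aspm (1.51), Prc1 (1.54), Spc25 (1.56) and Cenpe (1.64). Without HD28 replicate 3, Aspm (1.61) and Cenpe (1.58) did not pass (adjusted p = 0.072 in both, limma). Cenpf read 8.51, 7.50 and 8.57 in dHD28, all above its HD28 arrays, with a log2 difference of 1.56 (SE 0.52, adjusted p = 0.065). Nusap1 read 9.19, 7.98 and 9.42, with a difference of 1.39 (SE 0.50, adjusted p = 0.085). In both genes dHD28 replicate 2 was the lowest of its group and still exceeded every HD28 array. Nusap1 passed without dHD28 replicate 2, with 1.83 (adjusted p = 0.041), and Cenpf passed without HD28 replicate 1, with 1.95 (adjusted p = 0.041).

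After the return, no member differed from MSC by the test. In dHD28 minus MSC, 0 of 35 passed in limma, 0 had an unadjusted p under 0.05, and 0% of all genes passed. The members' median log2 difference was 0.15, with a range from -0.11 (Aspm) to 0.41 (Cdca8). Lack of a call does not show equal levels. The 95% intervals of the members' differences reached from -1.09 to 1.35, and 20 of 35 lay within 1 log2 unit of 0 on both sides. Bub1 had the values 8.96, 9.06 and 9.24 in MSC and 9.85, 9.10 and 9.48 in dHD28, which overlap. Mad2l1 reached 10.49, 10.08 and 10.32 in dHD28, with a lowest array just under the highest of MSC.

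Cells derived from hepatocytes by TGF-β1 also had mitotic transcripts near the MSC level. In MLC minus MSC, 0 of 35 members passed in limma and 0 had an unadjusted p under 0.05, and 0% of all genes passed. All 35 differences were positive, with a median of 0.26 and a range from 0.10 to 0.54, while the median of all genes was -0.02. The signs depended on the arrays: without MSC replicate 3, 26 differences were positive and 9 negative. MLC had 2 arrays of the high spike-in class and MSC had 1, and within the low class 27 were positive and 8 negative (median 0.14), within the high class 21 and 14 (median 0.10). MLC arrays lay entirely above MSC in 2 members, Bub1 and Mad2l1, against 1.5% of all genes. Bub1 read 9.65, 9.46 and 9.52 in MLC. The 95% intervals reached from -0.96 to 1.61, and 17 of 35 lay within 1 log2 unit of 0. Between MLC and dHD28, 0 members passed and 0 had an unadjusted p under 0.05 (0% of all genes passed), the median difference was 0.09, the intervals reached from -1.06 to 1.37 and 23 lay within 1 log2 unit of 0.

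**Figure D3:**
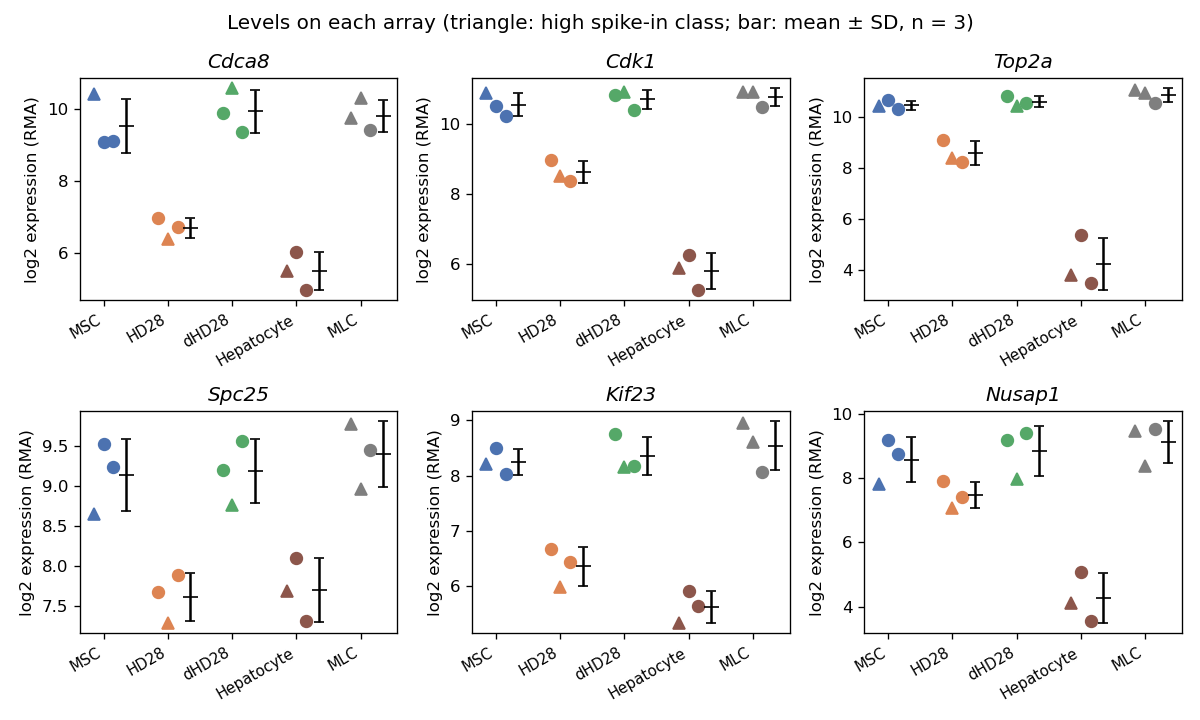
Log2 expression of 6 members on each array by group, with triangles for the high spike-in class and bars for the mean and SD of 3 arrays; the vertical scale differs between panels. In Cdca8, Cdk1 and Top2a the HD28 arrays lie between hepatocytes and MSC, in Spc25 the HD28 and hepatocyte arrays overlap, and in Nusap1 the HD28 and MSC arrays overlap.

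Primary hepatocytes had the lowest levels. Relative to MSC, 35 of 35 members were lower (limma), against 18.3% of all genes lower and 11.8% higher, with a median log2 difference of -4.37 and a range from -6.55 to -1.43. The arrays did not overlap in 35 members, against 27.9% of all genes. Birc5 read 10.63, 10.11 and 9.88 in MSC and 3.25, 5.01 and 2.71 in hepatocytes, a difference of -6.55 (SE 0.46, adjusted p = 1.6e-07). Its hepatocyte arrays spread over more than 2 log2 units, and 2 of the 3 lay below the lower quartile of their array, so the size of this difference is approximate. Top2a, which untangles chromosomes, read 10.43, 10.67 and 10.30 in MSC and 3.83, 5.40 and 3.49 in hepatocytes, a difference of -6.22 (SE 0.39, adjusted p = 7e-08). The hepatocyte means of 4 members, Aurkb, Bub1, Ttk and Nuf2, lay below the lower quartile of each hepatocyte array, so the size of their differences is approximate too. In all, 11 members had at least 1 hepatocyte array below its lower quartile: Aurkb, Birc5 and Bub1 had 2, and Melk, Ttk, Cenpf, Nuf2, Kif2c, Nusap1, Aspm and Top2a had 1. No member had a mean below it in HD28 or MSC.

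In hepatocytes the members differed most within the kinetochore role. Relative to MSC, Nuf2 was lower by 5.67, Ndc80 by 2.66 and Spc25 by 1.43, although all encode subunits of the NDC80 complex; these are differences and not levels. Among spindle genes the range ran from Top2a to Kif4, which was lower by 2.62 (SE 0.23). In the midzone role Anln was lower by 5.36 and Kif23 by 2.62.

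HD28 cells had higher mitotic transcripts than hepatocytes. In HD28 minus Hepatocyte, 31 of 35 members were higher (limma), against 15.3% of all genes, 0 were lower, against 11.2%, and the median log2 difference was 2.44. HD28 arrays lay entirely above the hepatocyte arrays in 33 members, against 26.6% of all genes. Without HD28 replicate 3, the array with hepatocyte markers, 30 were higher. The count also depended on the probe sets: with the mean of all probe sets of a gene, 24 were higher. Aurka, Cdca3, Incenp, Bub1b, Cenpa, Cenpf, Kif2c and Aspm then lost the call, and Kif11 gained it. Top2a differed by 4.35 (SE 0.39, adjusted p = 1.9e-06), Birc5 by 3.98, Nuf2 by 3.88 and Anln by 3.60. The first 3 had dim hepatocyte arrays, so these sizes are approximate. Top2a did not pass here when probe sets ending in _x_at, _s_at or _a_at were left out. With 0 for the hepatocyte mean and 100 for the MSC mean on the log2 scale, HD28 stood at a median of 53.5% over the members, from -6.08% in Spc25 to 74.5% in Nusap1. Without HD28 replicate 3 the median was 53.4% and Spc25 stood at -15.5%. Top2a (69.8%), Prc1 (69.1%) and Nuf2 (68.5%) were nearest to MSC after Nusap1, and Kif23 (28.1%), Cdca8 (29.7%), Kif4 (30.3%) and Kif11 (32.7%) were nearest to hepatocytes after Spc25.

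**Figure D4:**
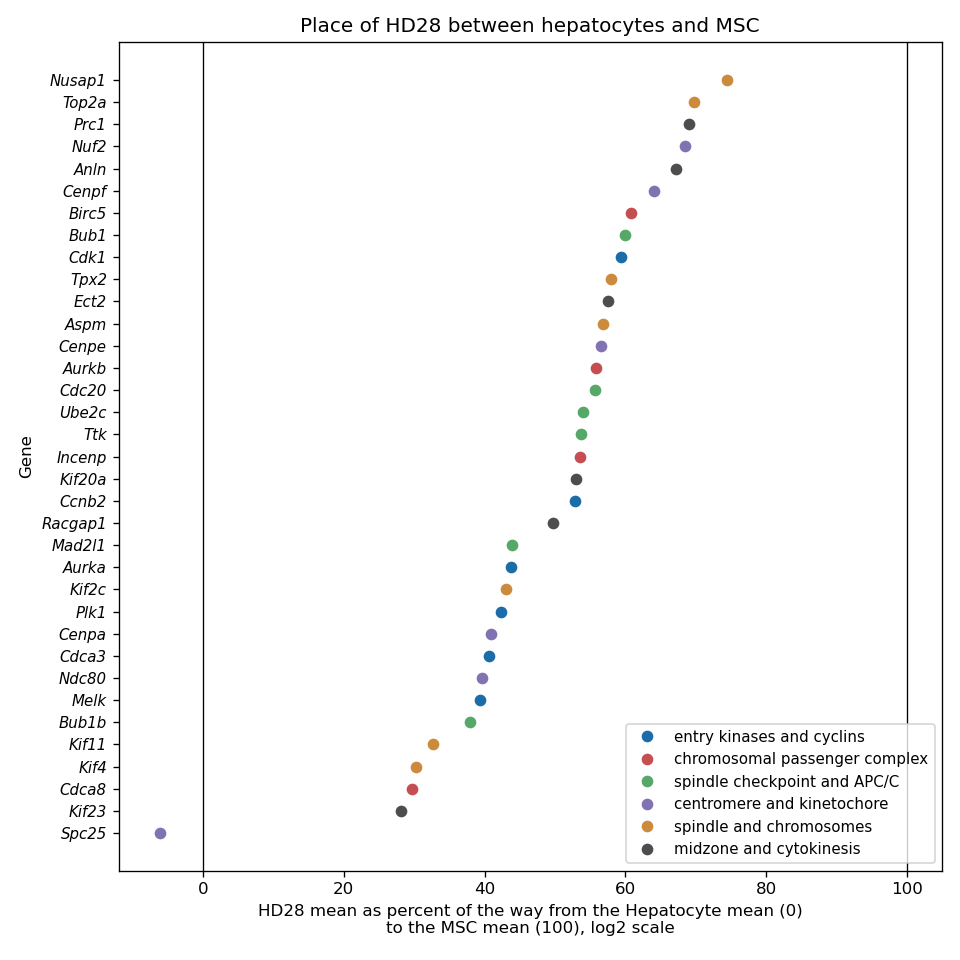
Place of the HD28 mean between the hepatocyte mean (0) and the MSC mean (100) in percent on the log2 scale, 1 point per member, coloured by role. Points spread around a median of 53.5%, from 74.5% for Nusap1 down to 28.1% for Kif23, and Spc25 lies apart at -6.08%.

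Spc25 was the exception among the 4 members without a call in this comparison. It read 7.67, 7.28 and 7.88 in HD28 and 7.69, 8.10 and 7.31 in hepatocytes, against 8.65, 9.52 and 9.23 in MSC. HD28 and hepatocyte arrays interleaved, and both lay below all MSC arrays. The HD28 difference from hepatocytes was -0.09 (SE 0.30, adjusted p = 0.83), and its sign turned when HD28 replicate 2 or hepatocyte replicate 2 was left out (0.08 and 0.11). Its partner subunit Spc24, which is not among the members and was looked at after its values were seen, had means of 6.98 in HD28, 7.91 in hepatocytes and 8.84 in MSC. The HD28 difference of Spc24 from hepatocytes was -0.93 (SE 0.30, adjusted p = 0.023), short of 2-fold; without HD28 replicate 3 it was -1.07 (adjusted p = 0.023), past it.

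Kif11 read 6.34, 4.86 and 5.70 in HD28 and 4.63, 5.03 and 4.28 in hepatocytes, with a difference of 0.99 (SE 0.42, adjusted p = 0.072, limma). HD28 replicate 2 fell into the hepatocyte range, and without it the difference was 1.37 (adjusted p = 0.02). Kif4 read 6.85, 6.27 and 6.29 in HD28 and 5.33, 5.95 and 5.75 in hepatocytes. Kif23 read 6.67, 5.98 and 6.44 in HD28 and 5.33, 5.91 and 5.64 in hepatocytes. Neither pair of groups overlapped, and the differences of 0.79 (adjusted p = 0.012) and 0.74 (adjusted p = 0.036) were under 2-fold. Cdca8 passed with 1.21 (SE 0.41, adjusted p = 0.028). It did not pass without HD28 replicate 1 (1.07, adjusted p = 0.095), without HD28 replicate 3 (1.19, adjusted p = 0.06), without hepatocyte replicate 1 (1.20, adjusted p = 0.064) or without hepatocyte replicate 3 (0.94, adjusted p = 0.11).

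The conversion of hepatocytes into MLC was accompanied by higher levels of every measured member. In MLC minus Hepatocyte, 35 of 35 were higher (limma), against 18.4% of all genes higher and 12% lower, with a median log2 difference of 4.64 and a range from 1.69 to 6.83. The arrays did not overlap in 35 members, against 28.8% of all genes. Birc5 read 10.72, 10.54 and 10.21 in MLC, far above its hepatocyte arrays, and differed by 6.83 (SE 0.46, adjusted p = 1.1e-07), a size that is approximate because 2 of its 3 hepatocyte values were dim. Top2a differed by 6.61, Nuf2 by 6.09, Bub1 by 6.08 and Aurkb by 5.93. Spc25 had the smallest difference, 1.69 (SE 0.30, 3.23-fold, adjusted p = 0.00037), with 9.77, 8.96 and 9.45 in MLC. This comparison shares the hepatocyte arrays with that of hepatocytes and MSC.

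The change from hepatocytes to MLC was set against that from HD28 to dHD28, and the difference between them was tested as a contrast of 4 groups. By its construction this contrast is the sum of HD28 minus Hepatocyte and MLC minus dHD28. The latter had a median of 0.09 and 0 calls, so the contrast largely repeats the difference between HD28 and hepatocytes and is no separate evidence on the returns. The MLC change exceeded the dHD28 change in 30 of 35 members (limma, adjusted p under 0.05 and a difference of at least 1 log2 unit), against 13.8% of all genes, and 0 were smaller, against 9.96%. The median excess was 2.48. Top2a had an excess of 4.59 (SE 0.55, adjusted p = 6.5e-05), but did not pass without probe sets ending in _x_at, _s_at or _a_at. Cdca8 (1.08, adjusted p = 0.18), Kif11 (1.15, adjusted p = 0.17), Kif4 (0.97, adjusted p = 0.036), Kif23 (0.92, adjusted p = 0.082) and Spc25 (0.13, adjusted p = 0.85) did not pass. Leaving out single arrays gave between 25 and 31 members. The fit that lacked HD28 replicate 3 gave 30, with Plk1 lost and Kif4 gained.

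Not all probe sets of the members gave the same calls. The members had 43 further probe sets, of 23 genes. In HD28 minus MSC, 18 of these were lower and 0 higher, and of 16 with a mean over 6 log2 units 14 were lower (limma over all probe sets). In dHD28 minus HD28, 20 were higher and 0 lower, and 15 of the 16 bright ones were higher. In HD28 minus Hepatocyte 12 were higher, 1 was lower and 30 were not called, and 10 of the 16 bright ones were called, against 31 of 35 chosen probe sets. Without HD28 replicate 3, these 3 comparisons gave 16 lower, 19 higher, and 12 higher with 1 lower. Dim probe sets of Cenpa, Cdca3 and Spc25 gave differences unlike those of the chosen ones. A dim probe set of Cenpa, with a mean of 3.01, was higher in hepatocytes than in MSC by 1.46 (SE 0.19), opposite to the chosen one (-4.53). The further probe set of Spc25, with a mean of 4.03, differed by -0.18 (SE 0.18, adjusted p = 0.63) between HD28 and MSC. With the mean of all its probe sets, the Cenpa difference between HD28 and hepatocytes turned from 1.86 to -0.08 (adjusted p = 0.68), and without probe sets ending in _x_at, _s_at or _a_at to -0.49 (adjusted p = 0.0098). In that latter setting the HD28 differences from MSC were -0.91 in Cenpa, -0.18 in Spc25 and -0.08 in Cdca3, each under 2-fold. The Cdca3 probe set used there, with a mean of 2.88, differed by 0.02 in dHD28 minus HD28, by 0.20 in Hepatocyte minus MSC and by -0.22 in MLC minus Hepatocyte, the last 2 opposite in sign to the chosen one (-4.04 and 4.23).

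Few members were called for a difference between the spike-in classes within groups. In a fit with group and class, Cenpf was lower on high-class arrays by 1.06 (SE 0.19, adjusted p = 0.0073, limma). It was the 1 of 35 members called, which is near the share of all genes (2.18% lower and 0.033% higher). Differences were negative in 19 members and positive in 16. Aspm differed by -0.96 (adjusted p = 0.0047), Cenpe by -0.72 (adjusted p = 0.046) and Kif11 by -0.69 (adjusted p = 0.041), each under 2-fold. On the other side Aurka differed by 0.66 (adjusted p = 0.053) and Plk1 by 0.56 (adjusted p = 0.15). Nusap1 differed by -0.78 (adjusted p = 0.057), with high-class arrays lower in all 5 groups. With class as a block, 34 members fell in HD28 and 35 rose in dHD28. Cenpf then passed in both comparisons (adjusted p = 0.007 and 0.0026), and Nusap1 in the rise only (0.075 and 0.024). What the class stands for was not tested.

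**Figure D5:**
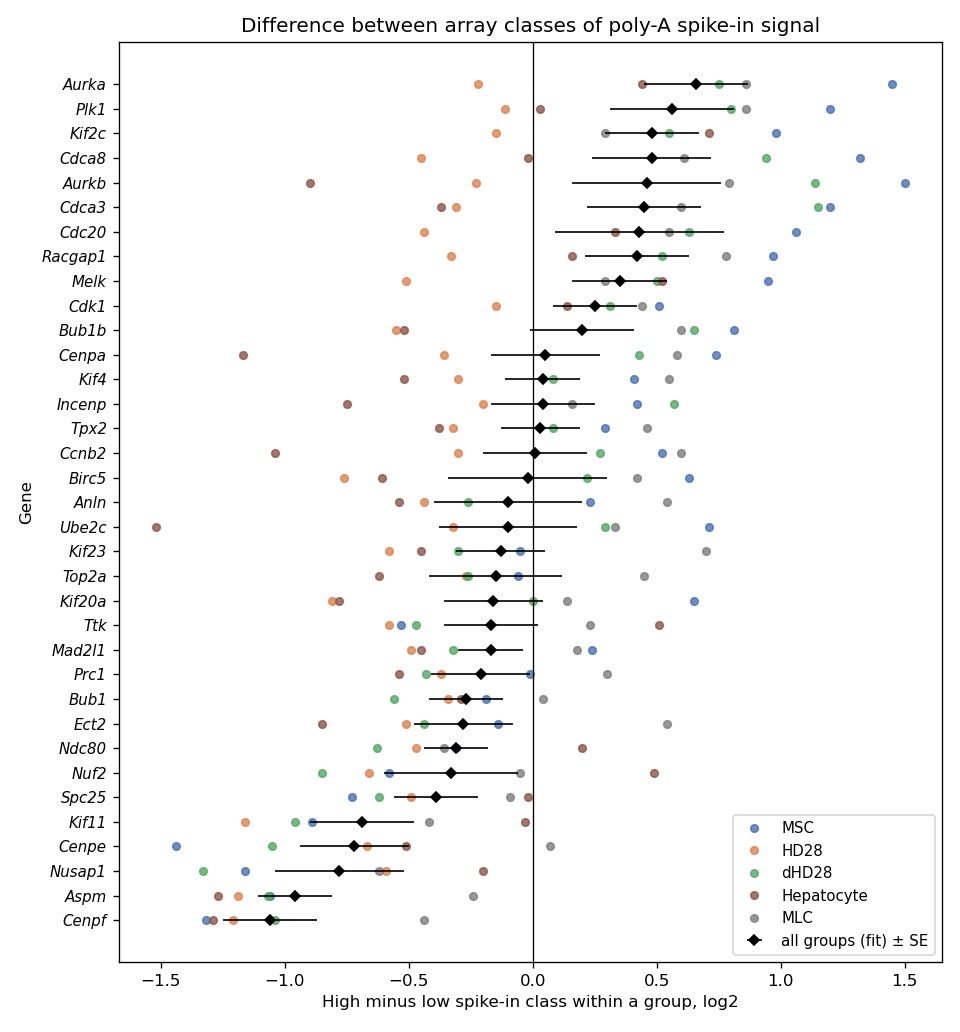
Difference in log2 expression between arrays of high and low poly-A spike-in signal within each group (coloured points) and over all groups from the limma fit (black diamonds with SE) for each member, sorted by size. Cenpf lies at -1.06 and Aspm at -0.96, with all 5 groups below 0 in both, while Aurka lies at 0.66 with HD28 below 0.

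The wider mitotic machinery was examined through lists of 121 other genes, of which 118 were measured. In HD28 minus MSC, 56 were lower and 1 was higher (limma), with a median of -1.08, against 3.52% of all genes lower and 3.24% higher. In dHD28 minus HD28, 59 were higher and 1 was lower, against 4.63% and 4.19%. In dHD28 minus MSC and in MLC minus MSC, 0 passed in limma. In HD28 minus Hepatocyte 53 were higher and 0 lower, against 15.3% and 11.2% of all genes, and in MLC minus Hepatocyte 87 were higher and 0 lower, against 18.4% and 12%. Without HD28 replicate 3, 44 were lower and 1 higher in HD28 minus MSC, 51 higher and 1 lower in dHD28 minus HD28, and 49 higher and 2 lower in HD28 minus Hepatocyte.

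By list, the counts of genes that fell in HD28 can be set against 3.52% of all genes. Of 16 further centromere proteins 12 fell, among them Cenpu by 1.96, Cenpp by 1.94 and Cenpm by 1.93. Of 11 entry regulators 8 fell, among them cyclin A2 (Ccna2) by 2.26, the phosphatase Cdc25c by 2.02 and the Cdk subunit Cks2 by 1.97. Of 18 kinetochore and checkpoint genes 10 fell, led by Ska1 (2.67), Ska3 (2.09) and Kntc1 (2.07). Of 22 spindle, motor and centrosome genes 13 fell, led by the centrosome kinase Nek2 (2.22), Cep55 (2.13) and Tacc3 (2.13). Separase (Espl1) fell by 2.21 and securin (Pttg1) by 1.84. Without HD28 replicate 3 these counts were 10, 7, 7 and 11, and both separase and securin passed; each gene named here kept its call.

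Of 13 APC/C subunits and activators 1 fell, the activator Fzr1, by 1.26 (SE 0.36, adjusted p = 0.04), which is near the 3.52% of all genes, and the list's median was -0.15. Fzr1 did not pass without HD28 replicate 3 (-1.12, adjusted p = 0.12). Of 13 condensin and cohesin genes 3 fell, the condensin subunits Ncapd2 (2.32), Ncapg (2.24) and Ncaph (2.23). Of the 5 cohesin subunits, Rad21 differed by -0.71 (SE 0.16, 1.64-fold, adjusted p = 0.013), short of 2-fold. Smc1a, Smc3, Stag1 and Stag2 had differences of -0.34, -0.40, -0.09 and 0.32 with adjusted p-values of 0.38 to 0.90. Relative to hepatocytes, HD28 was higher in 7 of the 13 APC/C genes, against 15.3% of all genes and also 7 without HD28 replicate 3, such as Anapc10 by 2.10 and Cdc23 by 2.86. No test compared one list with another.

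Of 23 measured transcriptional regulators of late cell-cycle genes, 7 fell in HD28, against 3.52% of all genes, and 1 rose, which is near the 3.24% of all genes. With HD28 replicate 3 left out, 4 fell and 1 rose. The activators of the mitotic programme Mybl2 and Foxm1 fell by 2.46 (SE 0.64, adjusted p = 0.025) and 2.09 (SE 0.42, adjusted p = 0.0069), from means of 7.12 and 8.51 in MSC to 4.66 and 6.41. The E2F family members E2f7 and E2f8 fell by 2.32 and 2.14, the MuvB subunit Lin9 by 1.45, the pocket protein p107 (Rbl1) by 1.11 and the E2F partner Tfdp1 by 1.08. Mybl2, Rbl1 and Tfdp1 did not pass without HD28 replicate 3, with -2.45 (adjusted p = 0.063), -1.09 (adjusted p = 0.11) and -0.97 (adjusted p = 0.089). Rbl2, the pocket protein p130 of quiescent cells, rose by 1.22 (SE 0.26, adjusted p = 0.008), from a mean of 7.08 in MSC to 8.30 in HD28. It fell by 1.28 (adjusted p = 0.005) in dHD28, to 7.02, and without HD28 replicate 3 Rbl2 passed in both comparisons (1.28 and -1.33). Cdkn1a, which encodes the cyclin-dependent kinase inhibitor p21, had means of 9.40 in MSC and 10.77 in HD28, a difference of 1.37 (SE 0.53) that did not pass (adjusted p = 0.13). The NF-Y subunits Nfya, Nfyb and Nfyc had differences of -0.02, -0.21 and -0.78, none of them 2-fold. The adjusted p of Nfyc was 0.019 (limma), and in dHD28 minus HD28 it differed by 0.82 (adjusted p = 0.012), also under 2-fold. Relative to hepatocytes, Nfya was higher by 1.73 in HD28 and by 1.95 in MLC, both called, while Nfyb and Nfyc were not called. In MLC relative to hepatocytes, Rbl1 was higher by 4.23, Foxm1 by 4.01 and E2f7 by 3.44, and Rbl2 differed by -0.77 (adjusted p = 0.025), under 2-fold.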

How the data were processed

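The authors deposited one table of log2 expression values made by robust multi-array average (RMA), per the submitters' processing notes, which give no version. This method equalises the distribution of the arrays, so a global shift in RNA content is not kept. Base 2 was inferred from their range (lowest 1.32), and the genome build is not given in the sources used here. Arrays carry no read depth; their number limits the precision. Of 45101 probe sets, 64 are controls, and 34945 had 1 gene symbol, 932 several and 9160 none in the platform annotation; only those with 1 symbol were used. For the 9010 genes with several probe sets, the one with the highest mean stood for the gene.

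One linear model with 5 means and 10 residual degrees of freedom served all comparisons (limma 3.58.1, R 4.3.3). The p-values were two-sided and adjusted by Benjamini-Hochberg over 18193 genes, 8 pairs of groups were compared, and calls required both an adjusted p under 0.05 and a change of 1 log2 unit or more. SE values pool the spread of all groups. A marker was well above the dim mark at 2 log2 units over the lower quartile. The script was checked on simulated data. Per-sample columns left unused numbered 0.

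Members and lists were chosen with earlier results of these data known. Per-array values are given for the members with the largest and smallest change between HD28 and MSC in each role and for those whose call differs from most of their role, and for a few examples chosen after their values were seen (Birc5, Top2a, Bub1). Other mitotic genes are named by the 3 largest changes of a list, together with the transcriptional regulators; the APC/C and NF-Y examples and the cohesin subunits were chosen after their values were seen.

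Replicate numbers may pair dHD28 with HD28, where deviations from the group means correlated by 0.32, 0.28 and 0.12, and MLC with dHD28 (0.21, 0.78 and 0.60). In dHD28 and HD28 the number cannot be told apart from the spike-in class. In MLC and dHD28, replicates 2 and 3 (0.78 and 0.60) shared a class and replicate 1 (0.21) did not. The part of the class in these values was not tested. In each other comparison at least 1 pair was under 0.1. Alternatives were other rules for probe sets, other scalings, other options of the fit, blocks for replicate number or spike-in class, and fits that lacked 1 array.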

Additional observations from a re-analysis of the deposited data

Results flagged for a closer look

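The change from hepatocytes to MLC differed from the change from HD28 to dHD28 by the test of that difference in 30 of 35 members, in each of which the MLC change was larger (limma, adjusted p under 0.05 and at least 1 log2 unit). Because MLC and dHD28 differed by a median of 0.09 with 0 calls, this largely repeats the difference between HD28 and hepatocytes (31 of 35 higher) and is not a separate result on the return. Among the members described on every array, the excess in log2 units was 3.48 in Nusap1, 3.10 in Prc1, 3.06 in Ube2c, 2.86 in Cdk1 and 2.69 in Cenpf. It was 2.57 in Incenp, 2.48 in Kif20a, 2.14 in Kif2c, 1.89 in Cenpa, 1.63 in Melk and 1.38 in Mad2l1. Of these, Incenp (0.70, adjusted p = 0.13, limma), Kif2c and Cenpa did not pass with the mean of all probe sets of a gene. Kif2c and Cenpa also did not pass without probe sets ending in _x_at, _s_at or _a_at. Kupffer cell marker means of 6.52 to 8.36, endothelial marker means of 5.94 to 7.15 and lymphocyte marker means of 4.91 to 5.71 moved with the hepatocyte group, and their part in these differences was not tested. No group had enough arrays for a check of single outlying values.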

How the results depend on the processing

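The signs of all measured members in HD28 minus MSC and dHD28 minus HD28 were the same in every alternative, though near 0 for the dim probe set of Cdca3. For 91 results on named members, 2568 of 2627 alternative fits kept direction and side of the threshold. With the mean of all probe sets of a gene, 30 members fell in HD28 and 30 rose in dHD28. In that setting 24 were higher in HD28 than in hepatocytes and 23 had a larger return in MLC. Without probe sets ending in _x_at, _s_at or _a_at, 28 members remained measured, and 20 were higher in HD28 than in hepatocytes and 19 had a larger return in MLC. That choice replaced the Cenpa probe set by a dimmer one and turned its HD28 difference from hepatocytes to -0.49 and its excess on return to -0.67; with the mean of its probe sets these were -0.08 and -0.20. In Spc25 the HD28 difference from hepatocytes turned to 0.03 without such probe sets, 0.07 on low-class arrays, and 0.08 and 0.11 without HD28 replicate 2 or hepatocyte replicate 2 (-0.28 to 0.11 over all arrays left out); the cause was not tested. Leaving out each array in turn gave 28 to 33 members lower in HD28, 31 to 34 higher in dHD28, 29 to 32 higher in HD28 than in hepatocytes and 25 to 31 with a larger return in MLC, 35 in both other comparisons with hepatocytes and 0 in those among MSC, dHD28 and MLC. With a replicate block, which pairs arrays by number, the counts were 33, 33, 31 and 30, so the block changed none of them. Only low-class arrays, fewer samples with HD28 replicate 3 among them, gave 26 and 28 members for the fall and the rise. Centring on 8 housekeeping genes moved the median of all genes by 0.114 in HD28 minus MSC, -0.15 in dHD28 minus HD28, -0.45 in HD28 minus Hepatocyte, 0.565 in Hepatocyte minus MSC and -0.601 in MLC minus Hepatocyte; 31 members then fell in HD28, 32 rose in dHD28 and 27 were higher in HD28 than in hepatocytes. Only high-class arrays (medians without a test), and the place of HD28 and the further probe sets without HD28 replicate 3, were added after the data were examined. With 3 arrays a group, dim signal limits values in hepatocytes most.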
